A study of Mus musculus with 12 samples.

Results

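Ribosome biogenesis and RNA polymerase I were followed through 40 of the 24054 genes in each library's table. These genes, and the further lists used below, were chosen by name with earlier results of these data known. The 40 included the precursor of ribosomal RNA (Rn45s), 9 genes of RNA polymerase I transcription, and Myc with its partner Max. The others were 5 nucleolar chaperones and scaffolds, 7 proteins of the guide RNA particles, 9 factors of the small subunit and 7 of the large subunit. All 40 were found in the tables, and all 40 passed the filter on low counts in every comparison. The RNA came from mouse fetal liver at the E13.5 stage, from sorted LSK cells (lineage-negative, Sca-1-positive, Kit-positive blood progenitors), and was sequenced as 12 libraries in 4 groups of 3. Long-term haematopoietic stem cells (LT-HSC, sorted as CD150+ CD48-) and multipotent progenitors (MPP, sorted as CD150- CD48+) were each taken from controls and from mutants of Setdb1, a histone H3 lysine 9 methyltransferase. All mutants were labelled Setdb1 p/p;vav-cre, where vav-cre is a recombinase transgene active in blood cells and the p allele is not defined in the labels. All controls were heterozygous for p, some without the transgene (Setdb1 +/p;+/+: number 1 in LT-HSC, numbers 1 and 2 in MPP) and some with it (Setdb1 +/p;vav-cre: numbers 2 and 3 in LT-HSC, number 3 in MPP).

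A ribosome begins in the nucleolus, where RNA polymerase I transcribes the repeated ribosomal DNA into one long precursor RNA. Guide RNA particles modify the precursor, the small-subunit processome and the large-subunit factors cut and fold it while ribosomal proteins join, and the subunits leave for the cytoplasm separately. Myc, as a dimer with Max, is known to activate many of these genes, and in the blood system growing progenitors are known to make more ribosomes and protein than stem cells at rest.

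Total expected counts ran from 10119416 to 14113198 per library, with 14863 to 15780 genes above 0. LT-HSC libraries came from 500 to 1000 sorted cells and MPP libraries from 20000, so cell type and cell number cannot be told apart. Levels are given in CPM, for which each library's counts were scaled by its total and by its TMM factor from edgeR. Because of that factor, CPM are not plain shares of a library's counts. The CD150 and CD48 markers separated the cell types as labelled. Slamf1, which encodes CD150, was at 34.6 to 41.5 CPM in LT-HSC and 1.08 to 2.41 CPM in MPP. Cd48 was at 10.6 to 30.6 CPM in LT-HSC and 149 to 261 CPM in MPP. Some sort markers also differed within a cell type: Ly6a, which encodes Sca-1, fell in mutant MPP from 26.3 to 35.3 CPM in controls to 13.7 to 16.9 CPM in mutants (log2 fold change -1.07, adjusted p = 0.000339) and was at 94.3 CPM in LT-HSC mutant 2 against 24.1 to 47.1 CPM in the other LT-HSC libraries. Cd48 also fell in mutant MPP, by 0.44 on the log2 scale (adjusted p = 0.0148), and Kit was at 819 to 1087 CPM over all libraries. Setdb1 itself was at 73.4 to 108 CPM in control and 66.3 to 80.1 CPM in mutant LT-HSC, and at 87.9 to 141 CPM in control and 86.6 to 117 CPM in mutant MPP; these are sums over the whole gene and do not check the genotype labels. The labels do not say that libraries came from separate fetuses, so the p-values describe no more than how far these particular samples spread. The 3 LT-HSC mutants differed from one another the most, with a chi-square per gene of 24.8 to 47.2 between pairs, against 13.3 to 15.6 in LT-HSC controls and 5.01 to 19.2 in the MPP groups.

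The Rn45s entry is 5833 bases long, shorter than the full precursor, and reads from mature ribosomal RNA and from its precursor cannot be told apart in it. Ribosomal RNA mostly lacks a poly(A) tail, while the labelled library kit primes on poly(A), so the Rn45s level is not a measure of all ribosomal RNA. In bulk libraries, fewer cells of a type and less RNA per cell cannot be told apart either. Reads of the kit do not mark strand, so overlapping genes are not separated, and Npm1 has pseudogene copies with which reads may be shared.

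In MPP, 20 of the 40 genes rose in Setdb1 mutants and none fell (adjusted p under 0.05 in edgeR's quasi-likelihood test with Benjamini-Hochberg adjustment), where 16.5% of all 12392 genes tested rose and 18.5% fell. Rn45s rose, as did 4 of 9 genes of RNA polymerase I transcription, 4 of 5 nucleolar chaperones and scaffolds, 4 of 7 guide-particle proteins, 5 of 9 small-subunit factors and 2 of 7 large-subunit factors. Neither Myc nor Max passed the test. The changes were modest and went one way: log2 fold changes of the 40 genes had a median of 0.27, against -0.01 over all genes tested, and 39 of 40 were above 0. With scaling by total counts only, 34 of 40 were above 0, the median was 0.20, and the calls over all genes shifted from 2039 higher and 2298 lower to 1553 and 2781.

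In MPP, Rn45s had levels of 6776, 8899 and 8926 CPM for control libraries and of 11298, 12310 and 12674 CPM for mutant libraries. Every mutant lay above every control, including the vav-cre control, which is control 3. The log2 fold change was 0.55 (SE 0.0988, adjusted p = 0.00157).

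Of the polymerase I subunits, Polr1d, a small subunit shared with RNA polymerase III, was at 142, 147 and 144 CPM in MPP controls and at 180, 201 and 193 CPM in mutants. Its log2 fold change was 0.39 (SE 0.0823, adjusted p = 0.00378), and the groups did not overlap. Polr1b, the second-largest subunit, had 173, 169 and 153 CPM in controls and 202, 219 and 213 CPM in mutants (log2 fold change 0.34, SE 0.0862, adjusted p = 0.0104). Rrn3, the initiation factor that brings the polymerase to the ribosomal DNA promoter, was at 107, 103 and 97.6 CPM in controls and at 128, 144 and 137 CPM in mutants. All mutants were again above all controls, with a log2 fold change of 0.39 (SE 0.086, adjusted p = 0.0049). Polr1e, the subunit also known as PAF53, rose by 0.38 on the log2 scale (adjusted p = 0.0342).

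The largest subunit did not follow them. Polr1a, which holds the catalytic centre together with Polr1b, was at 176, 123 and 126 CPM in controls and at 132, 122 and 134 CPM in mutants. Its log2 fold change of -0.14 (SE 0.13, adjusted p = 0.417) was the one value of the 40 below 0, and MPP control 1 stood above all other MPP libraries. Ubtf, the architectural factor that covers active ribosomal DNA, had a log2 fold change of 0.19 and missed the threshold (adjusted p = 0.0827), although its mutants, at 287 to 291 CPM, were all above its controls, at 236 to 259 CPM. Polr1c and the promoter-selectivity subunits Taf1b and Taf1c had log2 fold changes of 0.14, 0.05 and 0.21 and were not called.

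Myc was at 530, 616 and 523 CPM in MPP controls and at 588, 600 and 539 CPM in mutants, and the groups overlapped. Its log2 fold change was 0.03 (SE 0.0904, adjusted p = 0.795), and it was slightly below 0 with upper-quartile scaling, with total counts only and without MPP control 1. Max, at 126, 134 and 90.2 CPM in controls and 96.1, 134 and 145 CPM in mutants, overlapped as well (log2 fold change 0.08, SE 0.167, adjusted p = 0.73).

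Among nucleolar chaperones and scaffolds, Npm1, the most abundant nucleolar chaperone in these libraries per length, was at 1577, 1322 and 1241 CPM in MPP controls and at 1623, 1934 and 1742 CPM in mutants. The lowest mutant lay just above the highest control, and the log2 fold change was 0.34 (SE 0.1, adjusted p = 0.0214). Npm3, its smaller relative, had 52.3, 56.7 and 40.6 CPM in controls and 61.4, 68 and 76.7 CPM in mutants (log2 fold change 0.45, SE 0.136, adjusted p = 0.0249). Nolc1, which carries guide particles between the nucleolus and Cajal bodies, was at 446, 365 and 347 CPM in controls and at 452, 534 and 507 CPM in mutants (log2 fold change 0.35, SE 0.107, adjusted p = 0.0254). For these 3 genes MPP control 1 or 2 was close to the lowest mutant. Ncl, nucleolin, rose by 0.26 (adjusted p = 0.039), and Gnl3, nucleostemin, had a log2 fold change of 0.27 and was not called (adjusted p = 0.129).

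The smallest p of all 40 genes in this comparison belonged to Nhp2, a core protein of the box H/ACA particles that guide pseudouridylation, on chromosome 11 from 51619773 to 51623718. Nhp2 was at 211, 189 and 180 CPM in MPP controls and at 269, 312 and 298 CPM in mutants, a log2 fold change of 0.59 (SE 0.0942, adjusted p = 0.00075). No mutant came near a control. Rrp9, a U3-specific protein, was tight in both groups, at 75, 78.2 and 76.8 CPM in controls and 95.3, 100 and 98 CPM in mutants (log2 fold change 0.34, SE 0.0819, adjusted p = 0.00855). Nop58, a core box C/D protein, was at 329, 318 and 304 CPM in controls and at 375, 432 and 396 CPM in mutants (log2 fold change 0.32, SE 0.0846, adjusted p = 0.0122). Gar1 rose by 0.36 (adjusted p = 0.0348), from 88.5, 100 and 125 CPM in controls to 129, 136 and 141 CPM in mutants. Its vav-cre control, control 3, lay just below the lowest mutant. Across the alternatives the log2 fold change of Gar1 ran from 0.06 to 0.51. It was called in 2 of the 6 fits with 1 library left out. The partners of these proteins in the same particles did not pass: Dkc1, the pseudouridine synthase, had a log2 fold change of 0.06, Nop56 of 0.07, and Fbl, the box C/D methyltransferase, of 0.15.

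Of the small-subunit factors, Bms1, a GTPase of the processome on chromosome 6 from 118383381 to 118419802, was at 153, 141 and 139 CPM in MPP controls and at 188, 210 and 190 CPM in mutants. Wdr43, a scaffold that joins the precursor early, was at 258, 263 and 259 CPM in controls and at 316, 356 and 342 CPM in mutants. Ltv1, which is released late in small-subunit maturation, was at 113, 102 and 103 CPM in controls and at 129, 146 and 136 CPM in mutants. For each of the 3 the groups were well apart, with log2 fold changes of 0.43, 0.36 and 0.36 (adjusted p = 0.0032, 0.00538 and 0.00877). Heatr1 and Rrp12 rose by 0.40 and 0.35. Nop14, Utp20, Nat10 and Tsr1 had log2 fold changes of 0.09, 0.24, 0.23 and 0.25 and were not called.

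Apart from Myc and Max, the large-subunit factors gave the fewest calls for their number. Ebna1bp2 was at 214, 199 and 204 CPM in MPP controls and at 251, 292 and 263 CPM in mutants (log2 fold change 0.37, SE 0.0874, adjusted p = 0.00739). Bop1, a part of the complex with Pes1 and Wdr12 that processes the large-subunit RNA, was at 159, 170 and 183 CPM in controls and at 205, 211 and 219 CPM in mutants (log2 fold change 0.30, SE 0.086, adjusted p = 0.0205). Both were higher in all 3 mutants than in all 3 controls. The partners of Bop1 were not called, at 0.06 for Pes1 and 0.19 for Wdr12, nor were Nop2, Nop16 and Nip7, at 0.15, 0.16 and 0.28.

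**Figure D1:**
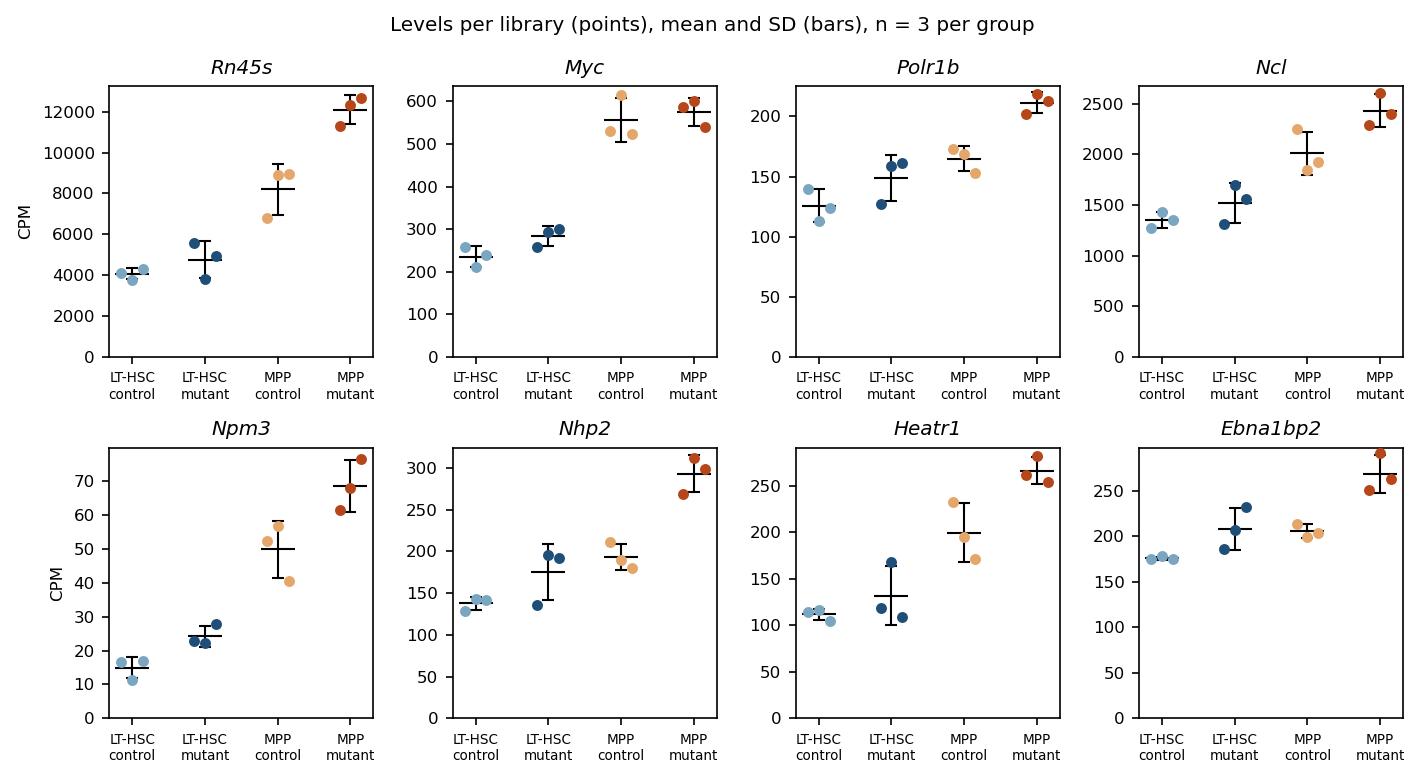
Levels of 8 genes (vertical axis, CPM from 0) in each library of the 4 groups (horizontal axis); points are libraries, bars are the mean and SD of 3. Rn45s, Polr1b, Ncl, Npm3, Nhp2, Heatr1 and Ebna1bp2 are highest in MPP mutants, while Myc overlaps between control and mutant MPP and is lower in all 6 LT-HSC libraries.

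Counting by separation gave 25 of the 40 genes with every MPP mutant above every MPP control and none with the reverse, where 3153 of the 12392 genes tested had mutants above controls; the called share beside it is the 16.5% given above. All 20 called genes kept their direction under every alternative, and 8 of them (Rn45s, Polr1d, Rrn3, Rrp9, Nhp2, Wdr43, Bms1 and Ebna1bp2) were called whichever library was left out. The number of genes called depended on single libraries, at 9 without MPP mutant 2, 12 without mutant 3, 12 without control 2 and 26 without control 1. With the vav-cre control as the only MPP control, the 20 had a median log2 fold change of 0.37. That fit also took in the vav-cre LT-HSC libraries to estimate the spread, so its calls cannot be compared with those of the main fit.

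Other RNAs moved with the mutant MPP libraries, where 16.5% of all genes tested rose and 18.5% fell. Of 28 cell-cycle genes 12 rose and none fell, with summed levels of 9753 to 10328 CPM in controls and 10812 to 11966 CPM in mutants; Ube2c and Plk1, both mitotic, rose by 0.59 and 0.54. Of 23 erythroid genes 20 rose, with sums of 2229 to 3952 CPM in controls and 6619 to 10084 CPM in mutants. Of 15 macrophage genes tested 14 fell, with sums of 1538 to 2204 and 377 to 544 CPM, and of 16 lymphoid genes tested 15 fell, with sums of 1354 to 1469 and 663 to 830 CPM. Hepatoblast genes, of which 7 of 14 tested fell, had sums of 239 to 547 and 63.8 to 113 CPM. Their part in the rise of the ribosome biogenesis genes was not tested.

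In LT-HSC the same contrast called none of the 40 genes, where 0.42% of 12847 genes tested were called in either direction. With edgeR 11 of the 40 had an unadjusted p under 0.05, as did 1221 of all 12847 genes tested, and DESeq2 also called none. All 40 log2 fold changes were above 0 (39 of 40 with total counts only), with a median of 0.27 against 0.03 over all genes tested. A p that misses the threshold does not show that the groups are alike.

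In LT-HSC, Rn45s had levels of 4099, 3780 and 4319 CPM for control libraries and of 5550, 3792 and 4933 CPM for mutant libraries, so that mutant 2 lay within the controls (log2 fold change 0.26, SE 0.133, adjusted p = 0.586). Myc was at 257, 210 and 240 CPM in controls and at 258, 294 and 300 CPM in mutants. The lowest mutant was level with the highest control, and the log2 fold change was 0.31 (SE 0.118, adjusted p = 0.46). Npm3 had the highest fold change of the 40, from 16.5, 11.3 and 17 CPM in controls to 22.9, 22.1 and 27.8 CPM in mutants, without overlap (log2 fold change 0.74, SE 0.215, adjusted p = 0.327). Bop1 was at 138, 122 and 125 CPM in controls and at 153, 195 and 167 CPM in mutants (log2 fold change 0.46, SE 0.128, adjusted p = 0.309).

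In 11 of the 40 genes every LT-HSC mutant was above every control, as in 842 of the 12847 genes tested; besides Myc, Npm3 and Bop1 these were Polr1d, Rrn3, Fbl, Nop58, Rrp12, Tsr1, Ltv1 and Ebna1bp2. LT-HSC mutant 2 had the highest values for many of them. Its 39 genes other than Rn45s summed to 9187 CPM, against 7417 and 8398 CPM in mutants 1 and 3 and 7237 to 7279 CPM in the controls. Heatr1, a large scaffold of the small-subunit processome, shows it: 168 CPM in mutant 2, but 119 and 109 CPM in mutants 1 and 3 and 105 to 116 CPM in controls. Without mutant 2 the median over the 40 genes was 0.15. The same library had the highest summed level of cell-cycle genes among the LT-HSC libraries, 9686 CPM against 7526 to 8557 CPM in the other 5, and its macrophage genes summed to 1722 CPM, against 601 and 626 CPM in mutants 1 and 3 and 1317 to 1708 CPM in controls. All 16 hepatoblast genes tested had log2 fold changes below 0 in LT-HSC mutants, none of them called, with sums of 533 to 1856 CPM in controls and 61.3 to 474 CPM in mutants. The part of these in the values was not tested.

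Whether the genotype effect differed between MPP and LT-HSC was tested in one model of all 12 libraries. None of the 40 genes was called by edgeR or by DESeq2, where 0.377% of 13249 genes tested were called, and 2 of the 40 had an unadjusted p under 0.05 in edgeR, as did 1637 of all 13249, so that the share among the 40 was below that over all genes. The 2 were Bms1, with a difference in log2 fold change of 0.35 (SE 0.129, adjusted p = 0.283), and Rrn3, with 0.28 (SE 0.118, adjusted p = 0.366). For Rn45s the difference was 0.34 (SE 0.195, adjusted p = 0.53) and for Myc -0.21 (SE 0.139, adjusted p = 0.599). The calls in MPP and their absence in LT-HSC are thus not shown to be a difference between the cell types.

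**Figure D2:**
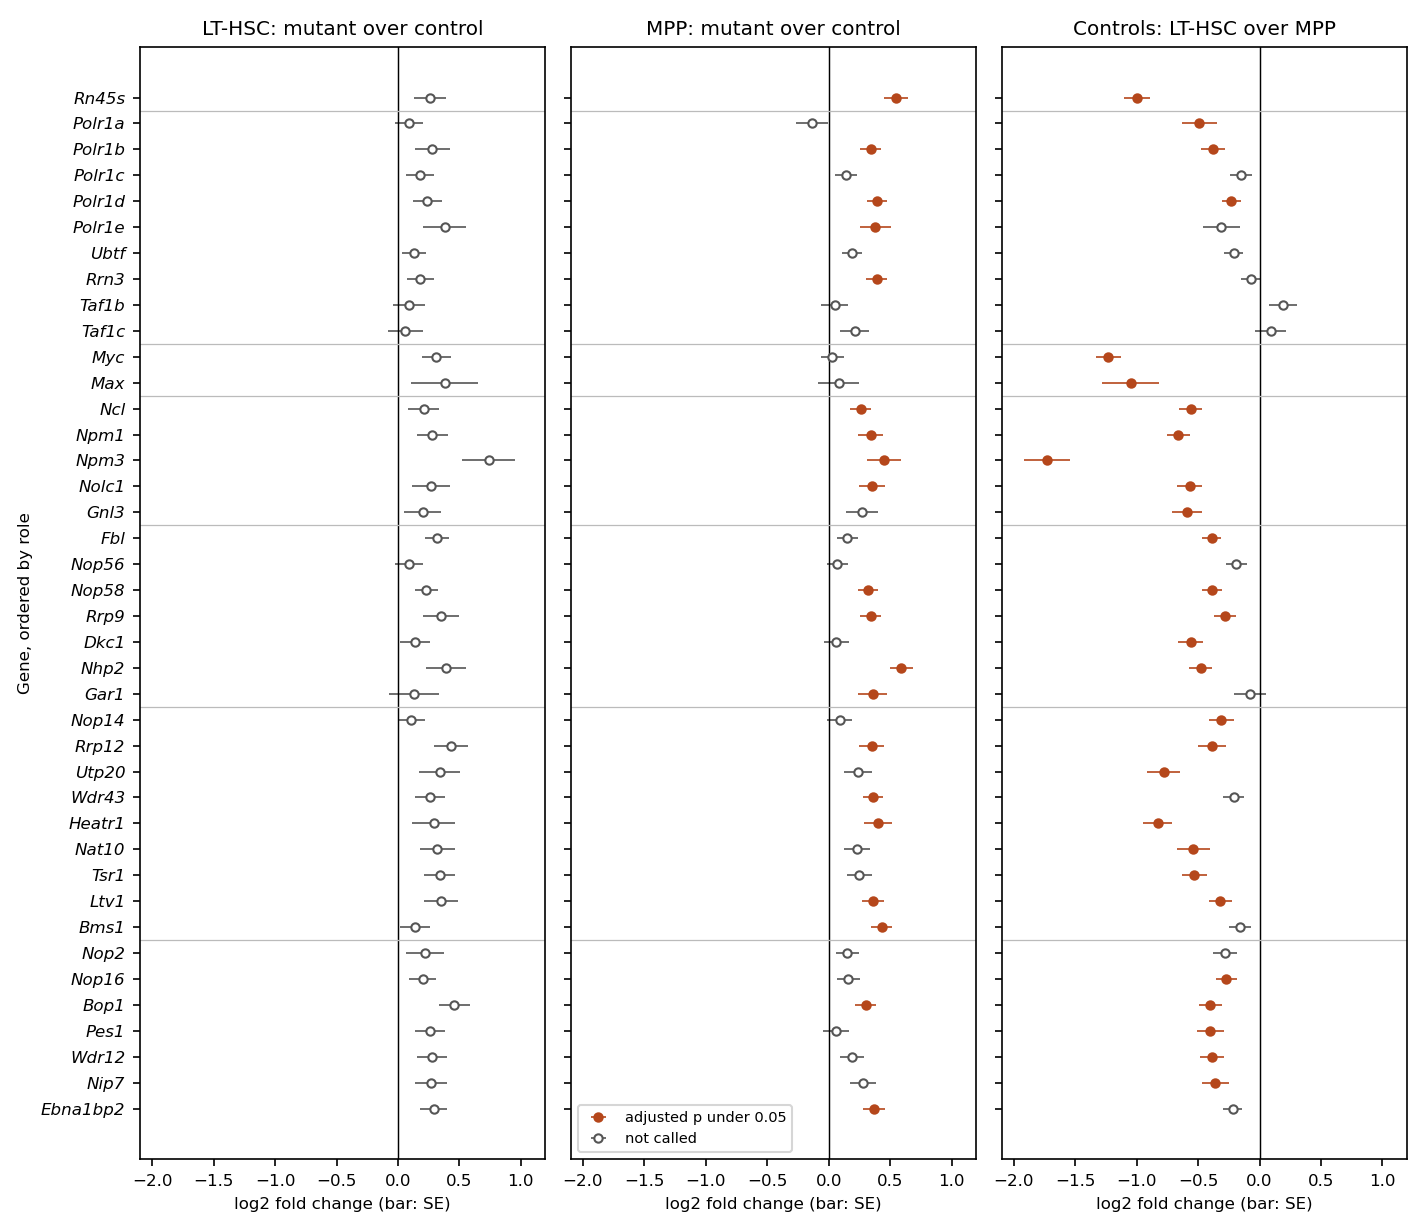
Log2 fold change (horizontal axis) with its SE (bar) for each of the 40 genes (vertical axis, ordered by role) in 3 comparisons; filled points have an adjusted p under 0.05. In MPP 20 points are filled and above 0, in LT-HSC none is filled and all lie above 0, and between control cell types 28 are filled and below 0.

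Between the control cell types, 28 of the 40 genes were lower in LT-HSC than in MPP and none was higher, where 18% of the 12834 genes tested were lower and 20.5% higher. This comparison shares the MPP controls with the genotype comparison in MPP, so the values of the 2 are given side by side and not related to each other. The median log2 fold change of the 40 genes was -0.39, against 0.01 over all genes tested. With total counts only, where the median of all genes moved by 0.11, 18 of the 40 were called lower and the calls over all genes shifted from 2628 higher and 2314 lower to 3376 higher and 1517 lower.

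Rn45s was at 3780 to 4319 CPM in control LT-HSC and at 6776 to 8926 CPM in control MPP, with means of 4066 ± 271 and 8200 ± 1234 CPM (SD, n = 3) and a ratio of 0.496 (edgeR adjusted p = 8.81e-05). Here Myc differed clearly: 210 to 257 CPM in control LT-HSC against 523 to 616 CPM in control MPP, a log2 fold change of -1.23 (SE 0.101, adjusted p = 1.84e-05). Max was lower too (-1.05, SE 0.229, adjusted p = 0.00548), at 75, 36.8 and 56.2 CPM in LT-HSC and 126, 134 and 90.2 CPM in MPP. The groups were apart for all 3 genes.

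All 5 nucleolar chaperones and scaffolds were lower in LT-HSC. Npm3 had the lowest fold change of the 40 genes, at 11.3 to 17 CPM in LT-HSC and 40.6 to 56.7 CPM in MPP (log2 fold change -1.73, SE 0.187, adjusted p = 0.0001). Npm1, Gnl3, Nolc1 and Ncl had log2 fold changes of -0.66, -0.59, -0.57 and -0.56. Of the small-subunit factors 7 of 9 were lower, led by Heatr1 at 105 to 116 CPM against 171 to 233 CPM (log2 fold change -0.83, SE 0.116, adjusted p = 0.000461), and by Utp20 at 57.5 to 68.8 CPM against 95 to 132 CPM (log2 fold change -0.78, SE 0.132, adjusted p = 0.00134). Tsr1 and Nat10 followed at -0.53 and -0.54.

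Of the guide-particle proteins 5 of 7 were lower. Dkc1 was at 228 to 256 CPM in control LT-HSC and 330 to 402 CPM in control MPP (log2 fold change -0.56, SE 0.101, adjusted p = 0.00195), Nhp2 had a log2 fold change of -0.48, and Fbl and Nop58 both had -0.39. Of the large-subunit factors 5 of 7 were lower: Bop1, Pes1, Wdr12, Nip7 and Nop16, between -0.40 and -0.27. The polymerase I genes gave the lowest share, 3 of 9. Polr1a, at 93.6 to 110 CPM against 123 to 176 CPM (log2 fold change -0.49, SE 0.141, adjusted p = 0.0197), was lower along with Polr1b at -0.38 and Polr1d at -0.23.

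Several genes that rose in mutant MPP did not pass between the control cell types, and the reverse also held. Rrn3 had a log2 fold change of 0.39 in mutant MPP and of -0.07 between control LT-HSC and MPP (adjusted p = 0.526). Bms1 had 0.43 and -0.16, and Gar1 had 0.36 and -0.08. Myc had 0.03 and -1.23, and Dkc1 had 0.06 and -0.56. Taf1b and Taf1c, at 0.19 and 0.09, were the 2 genes with a value above 0 in LT-HSC over MPP. These pairs of values share the MPP controls, and no test of the difference between the 2 comparisons was made.

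The lower values in control LT-HSC stood beside other differences, where 18% of all genes tested were lower in LT-HSC and 20.5% higher. Of 28 cell-cycle genes 18 were lower in LT-HSC and none was higher, with sums of 7526 to 8142 CPM in LT-HSC and 9753 to 10328 CPM in MPP. All 16 hepatoblast genes tested were higher in LT-HSC, with sums of 533 to 1856 CPM against 239 to 547 CPM, and of 23 erythroid genes 14 were higher, with sums of 4326 to 7241 CPM against 2229 to 3952 CPM. Their part in the lower ribosome biogenesis genes was not tested. With the vav-cre controls alone, which leaves 1 MPP library, 3 genes were still called lower (Rn45s, Myc and Npm3), and 18 were called without LT-HSC control 2.

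**Figure D3:**
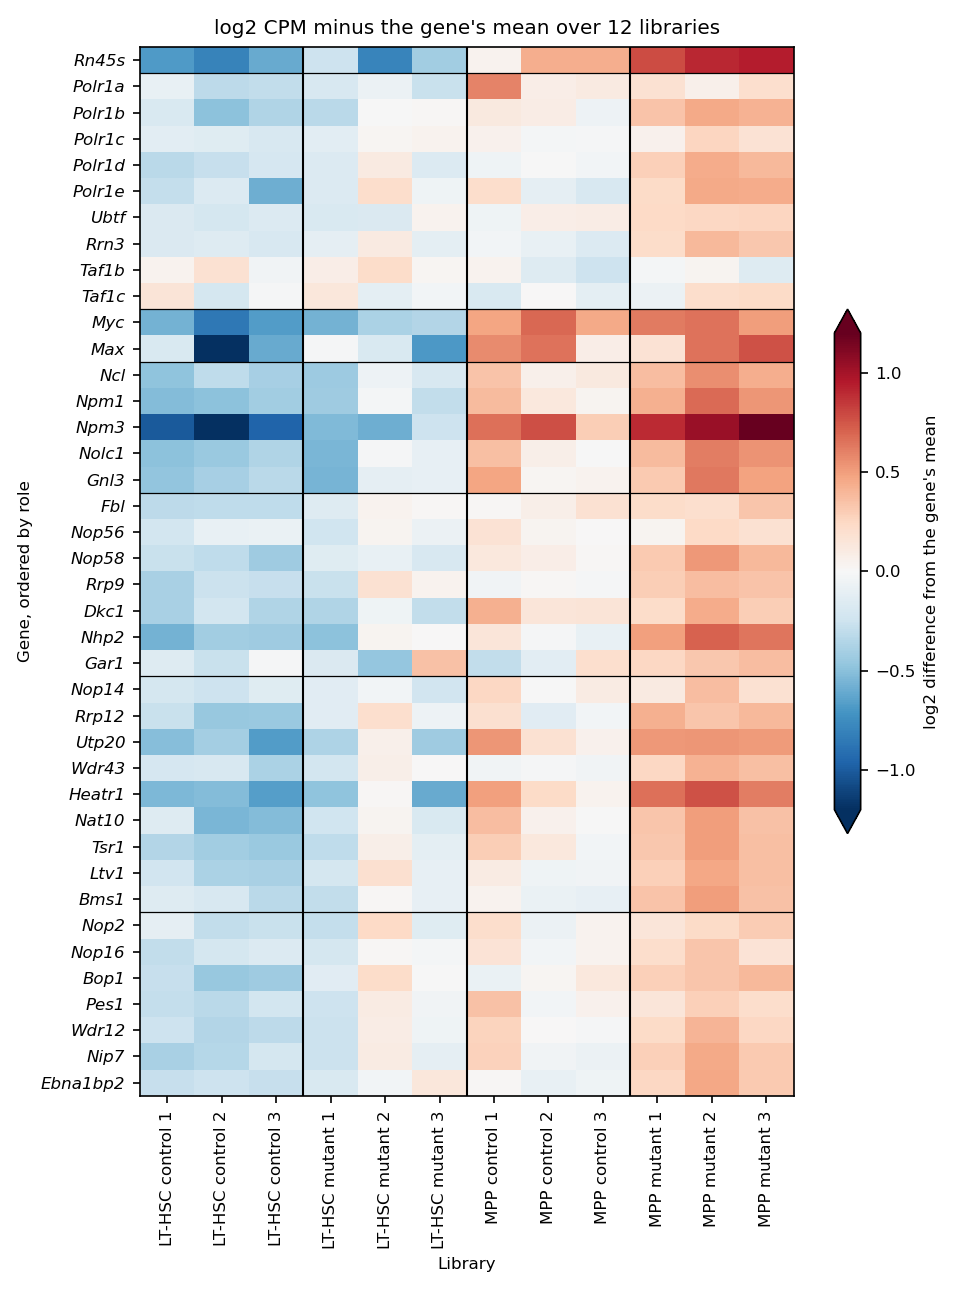
Log2 CPM of each of the 40 genes (rows, ordered by role) minus that gene's mean over the 12 libraries (columns, by group), blue below and red above the mean. The 3 MPP mutants are red for nearly all genes and the 3 LT-HSC controls blue for nearly all, LT-HSC mutant 2 is near the mean for many genes but blue for Rn45s, and Taf1b and Taf1c show little difference.

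Set beside the processing genes over the 4 groups, mean Rn45s was lowest where their mean sum was lowest, in LT-HSC controls. It was highest where that sum was highest, in MPP mutants. Within the groups this order did not always hold. Per 100 CPM of the other 39 genes, Rn45s had 56.6, 51.9 and 59.4 CPM in LT-HSC controls, 74.8, 41.3 and 58.7 CPM in LT-HSC mutants, 60.8, 90.2 and 92.1 CPM in MPP controls and 97.2, 94.2 and 103 CPM in MPP mutants. In LT-HSC the mutants spanned the controls, and in MPP all mutants lay above all controls.

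Libraries that went against this order within their group included MPP control 1, LT-HSC control 2 and LT-HSC mutants 1 and 2. MPP control 1 had the highest sum of the 39 genes among MPP controls, 11139 CPM against 9864 and 9688 CPM, and the lowest Rn45s. LT-HSC mutant 2 had the highest sum among LT-HSC libraries and, at 3792 CPM, the lowest Rn45s of the mutants. LT-HSC mutant 1 had the lowest sum of the LT-HSC mutants, 7417 CPM, and their highest Rn45s, 5550 CPM. LT-HSC control 2 had the highest sum of the LT-HSC controls, 7279 CPM, by a small margin, and their lowest Rn45s, 3780 CPM. Leaving out MPP control 1 moved the count of genes called in MPP from 20 to 26, of which 19 were among the 20. The labels give the genotype of MPP control 1 as that of MPP control 2, and they name no preparation day or batch.

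**Figure D4:**
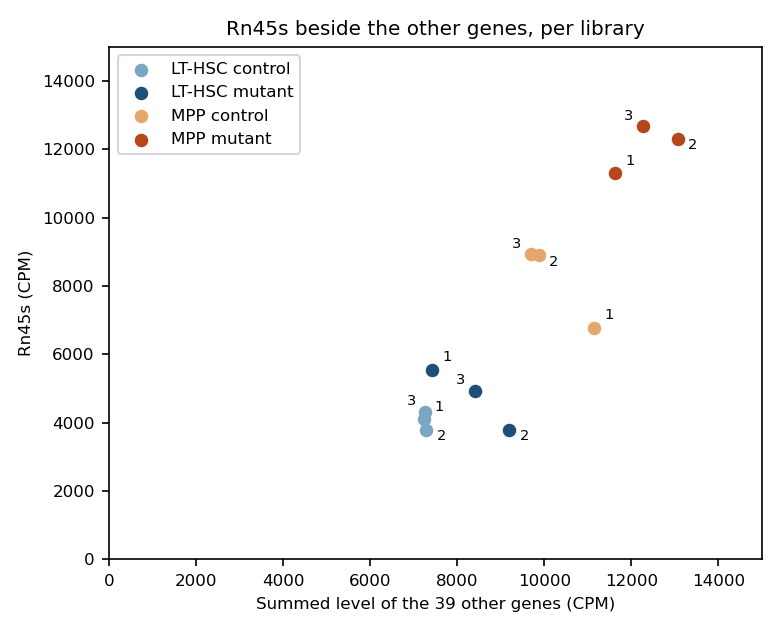
Rn45s (vertical axis, CPM) against the summed level of the other 39 genes (horizontal axis, CPM), one point per library, numbered by replicate. MPP mutants lie at the upper right, MPP control 1 lies to the right of and below the other MPP controls, and LT-HSC mutant 2 lies to the right of the other LT-HSC libraries at a low Rn45s level.

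Levels of different genes were compared only per length, as the deposited TPM, which divides by transcript length. Rn45s and Npm1 were the highest of the 40 in every group, at 1288 and 1262 TPM in control LT-HSC and at 3140 and 2106 TPM in mutant MPP (means of 3). Fbl was among the 4 highest in each group, at 425 to 515 TPM. The lowest was Utp20 in every group, at 13.2 to 22.3 TPM. Myc held 189 TPM in control LT-HSC and 399 TPM in control MPP, where it was number 5 of the 40 in rank.

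Beyond the 40, a list of 126 further ribosome biogenesis genes (other polymerase I subunits and factors, other small- and large-subunit factors, other guide-particle proteins and the RNA exosome), all of which passed the filter, gave 40 that rose and none that fell in mutant MPP, against the 16.5% and 18.5% of all genes. Their median log2 fold change was 0.22. Lyar, a nucleolar growth regulator, rose from 124, 130 and 141 CPM in MPP controls to 208, 264 and 252 CPM in mutants (log2 fold change 0.86, SE 0.104, adjusted p = 0.000117). Pno1, a factor of late small-subunit maturation, rose from 77.2, 73.6 and 76.8 CPM to 108, 141 and 124 CPM (log2 fold change 0.70, SE 0.102, adjusted p = 0.0004). Both were far above the controls in all mutants.

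By part of the pathway, the counts that rose are to be read beside the 16.5% of all genes tested. Of 43 other small-subunit factors 17 rose (39.5%), with Bysl at 0.63 and Utp18 at 0.59. Of 47 other large-subunit factors 13 rose (27.7%), with Mrto4 at 0.58 and the helicase Ddx21 at 0.49. Of 11 other polymerase I genes 3 rose, all of them subunits shared with RNA polymerase II (Polr2h, Polr2l and Polr2f, at 0.38, 0.38 and 0.24). Of 10 other guide-particle proteins 3 rose, among them Nhp2l1 at 0.30 and Naf1, an assembly factor of the box H/ACA particles, at 0.45. Of 15 exosome genes, which trim precursor ends, 4 rose: Dis3, Exosc4, Exosc3 and Exosc1, at 0.36 to 0.46. In LT-HSC mutants none of the 126 was called, where 0.42% of all 12847 genes tested were. In edgeR 13 of them had an unadjusted p under 0.05, as did 1221 of all 12847, and their median was 0.20. Between control LT-HSC and MPP 57 were lower and 2 higher, where 18% of all genes tested were lower and 20.5% higher. Their median was -0.26, against 0.01 over all genes tested. Naf1 (-1.45), Rrs1 (-0.76) and Utp14a (-0.66) were among those lower.

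Relatives of Myc and Max, some of which share the partner Max with Myc, were read separately. Of 10 such genes in MPP, 2 rose and 4 fell in mutants, where 16.5% of all genes tested rose and 18.5% fell. Mga, a repressor that also pairs with Max, rose from 166, 150 and 136 CPM to 209, 222 and 187 CPM (log2 fold change 0.43, SE 0.103, adjusted p = 0.00718). Mycl fell from 3.73, 8.4 and 5.21 CPM to 1.01, 0.542 and 0.506 CPM (adjusted p = 0.000196), at a low level throughout. Mlxip and Mxd4, both members of the extended Max network, fell by 0.42 and 1.06 on the log2 scale. Between the control cell types 2 of the 10 were higher in LT-HSC and 2 lower. These shares were near those over all genes tested, 20.5% higher and 18% lower. Mycn went the other way from Myc: 705 to 815 CPM in LT-HSC and 285 to 470 CPM in MPP (means 750.0 and 377 CPM, edgeR adjusted p = 0.000856). Mxd1, a Max partner that opposes Myc, was also higher in LT-HSC, at 50.3 to 60.1 CPM against 17.7 to 21.3 CPM (log2 fold change 1.53, SE 0.136, adjusted p = 2.85e-05). Lower in LT-HSC were Mlxip (log2 fold change -0.47, adjusted p = 0.00739) and Mycl, which was at 0 CPM in all 3 control LT-HSC libraries (adjusted p = 0.000116).

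Promoter windows from RefSeq, assembly GRCm38.p6, of 250 bases before to 50 bases after a transcript start, were found for 34 of the 40 genes; Rn45s, Myc, Npm1, Fbl, Rrp12 and Bop1 had none. The canonical E-box CACGTG, the sequence bound by Myc and Max, was searched first, and it reads the same on both strands. It occurred in 8 of the 34 genes (23.5%), against 8.09% of 27025 genes with a window and 11.9% of the 9359 of them tested in MPP. The 8 were Ltv1, Max, Nop2, Pes1, Rrn3, Tsr1, Utp20 and Wdr43. Of the 16 genes with a window that rose in mutant MPP 3 had the motif, and of the 18 not called 5 had it. Of the 22 genes lower in control LT-HSC 5 had it, and of the 12 not called 3.

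The 3 windows with an E-box whose genes rose in mutant MPP are shown on the gene's strand, with the motif in capitals. They lie at chr16:13780449-13780748 (Rrn3, plus strand), chr17:71615965-71616264 (Wdr43, plus strand) and chr10:13193088-13193387 (Ltv1, minus strand). In Rrn3 the motifs begin 215 and 48 bases before the start, and in Wdr43 and Ltv1 they begin 17 and 28 bases after it.
Rrn3: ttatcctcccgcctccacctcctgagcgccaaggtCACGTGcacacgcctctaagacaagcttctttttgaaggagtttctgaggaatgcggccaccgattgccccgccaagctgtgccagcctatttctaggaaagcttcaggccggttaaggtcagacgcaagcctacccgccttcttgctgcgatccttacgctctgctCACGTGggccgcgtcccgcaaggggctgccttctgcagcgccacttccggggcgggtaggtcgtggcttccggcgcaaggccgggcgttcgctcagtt
Wdr43: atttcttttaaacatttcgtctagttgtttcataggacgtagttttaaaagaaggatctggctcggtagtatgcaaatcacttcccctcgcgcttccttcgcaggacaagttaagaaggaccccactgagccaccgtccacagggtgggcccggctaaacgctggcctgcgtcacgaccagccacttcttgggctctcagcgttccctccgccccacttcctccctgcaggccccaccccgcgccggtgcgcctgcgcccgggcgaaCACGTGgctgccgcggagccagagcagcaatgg
Ltv1: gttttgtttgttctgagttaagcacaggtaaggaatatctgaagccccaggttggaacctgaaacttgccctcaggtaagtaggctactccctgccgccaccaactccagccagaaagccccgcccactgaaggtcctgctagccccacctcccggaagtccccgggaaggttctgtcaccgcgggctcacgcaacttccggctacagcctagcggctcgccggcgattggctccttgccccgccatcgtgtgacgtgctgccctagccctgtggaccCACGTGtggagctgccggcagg

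The ETS core CCGGAAGT, or ACTTCCGG on the other strand, occurred in 12 of the 34 genes (35.3%), against 4.31% of all genes with a window and 9.25% of those tested in MPP. It does not overlap the E-box motif in its letters. The 12 were Bms1, Ebna1bp2, Gar1, Heatr1, Ltv1, Nhp2, Nip7, Polr1c, Polr1e, Rrn3, Taf1c and Tsr1. Of the other motifs searched, CCAAT (or ATTGG) was in 29.4% of the 34 genes and 43.3% of those tested, and the E-box variant CACGCG (or CGCGTG) in 23.5% and 20%. A match is a description of these letters and not a site of binding. The windows of the 34 genes had a median GC content of 58.3%, against 52.7% over all windows. The part of GC content in these shares, and in those of the E-box, was not tested. The windows of the 2 genes of smallest p among guide-particle and small-subunit factors in mutant MPP, Nhp2 (chr11:51619523-51619822, plus strand) and Bms1 (chr6:118419368-118419667, minus strand), are shown with the ETS core in capitals, 23 and 109 bases before the start.
Nhp2: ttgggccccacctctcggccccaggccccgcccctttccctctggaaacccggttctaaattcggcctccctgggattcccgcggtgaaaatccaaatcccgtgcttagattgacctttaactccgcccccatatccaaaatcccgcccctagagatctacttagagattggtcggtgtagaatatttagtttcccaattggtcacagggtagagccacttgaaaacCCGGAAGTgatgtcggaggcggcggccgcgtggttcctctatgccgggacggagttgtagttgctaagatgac
Bms1: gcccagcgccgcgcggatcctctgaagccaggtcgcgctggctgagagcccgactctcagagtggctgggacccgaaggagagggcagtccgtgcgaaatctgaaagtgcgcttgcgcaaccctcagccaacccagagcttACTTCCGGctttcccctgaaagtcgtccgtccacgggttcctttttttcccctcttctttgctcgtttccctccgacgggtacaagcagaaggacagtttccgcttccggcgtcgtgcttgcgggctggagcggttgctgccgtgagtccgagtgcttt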

How the data were processed

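RNA of 12 sorted libraries was sequenced, and the authors deposited 1 table of gene values per library. Per the submitters' processing notes, STAR, RSEM and the mm10 genome were used, with no version or setting stated there. Per the file headers each table holds the expected count, an estimated count that RSEM divides over genes that share reads, and TPM, which scales by length and library. Between 7.13% and 7.76% of the expected counts per library, those at 0 included, were fractional, and they were rounded to whole numbers.

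Comparisons used edgeR 4.0.16 in R 4.3.3 (quasi-likelihood test, TMM scaling, genes kept with a count of 10 in enough libraries and a total of 15), with Benjamini-Hochberg adjustment over all genes tested and a threshold of 0.05. Each cell type was fitted alone, and the difference of genotype effects was fitted over all 12 libraries. Levels are CPM with TMM factors over the 12 libraries. The code was tested on simulated data. Alternatives were RLE, upper-quartile and total-count scaling, Rn45s left out of totals, DESeq2 1.42.0, no filter, the replicate number as a block, a joint fit, vav-cre controls only, and each library left out.

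The 40 genes and the further lists were chosen with earlier results of these data known. Rn45s and Myc were named in every comparison, called genes of the 40 by smallest p within each role, up to 20, and up to 4 called genes of each further list. Where other genes of the 40 are named, their values are given to account for all of them. Replicate numbers come from the titles; the names of the deposited files carry other numbers for some libraries, and their meaning is not given. Same-numbered LT-HSC control and mutant libraries deviated together (r across genes 0.108, 0.147 and 0.175). On that correlation alone the numbers may stand for a pairing. The LT-HSC values in the Results come from the fit without pairing. In the alternative with the number as a block none of the 40 was called in LT-HSC either. Same-numbered MPP libraries did not deviate together (r from -0.212 to -0.0245).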

Additional observations from a re-analysis of the deposited data

How the results depend on the processing

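In both comparisons with calls among the 40 genes, the called genes kept their direction under all alternatives. Scaling by total counts left 13 of 20 genes called higher in mutant MPP and 18 of 28 called lower in control LT-HSC. Over all genes it moved the calls of the difference between genotype effects from 20 and 30 to 12 and 30 (11 and 30 with upper-quartile scaling). With vav-cre controls only, 0 genes of the 40 were called in MPP and 3 between cell types, and the log2 fold change of Rn45s in MPP was 0.38. Genes called over the whole table were 14 in LT-HSC, 125 in MPP, 327 between cell types and 0 for the difference between genotype effects. Except in LT-HSC, these fits took in the vav-cre libraries of both cell types (13908 genes tested), with 1 MPP control left. That control is assumed to vary like the other groups. In MPP and between cell types, the controls and the set of fitted libraries thus changed together. The calls there cannot be compared with those of the main fits. In LT-HSC and for the difference, fewer libraries were fitted. DESeq2 called 261 genes in LT-HSC (132 higher, 129 lower) and 339 for the difference, against 54 and 50, no filter gave 87 for the difference, and the joint fit gave 250 in LT-HSC and 2792 in MPP, against 4337; the cause was not tested. Leaving out 1 library gave 13 to 102 genes in LT-HSC, 2774 to 4756 in MPP, 3410 to 4873 between cell types and 1 to 885 for the difference; of the 40, it gave 9 to 26 called higher in MPP and 18 to 27 called lower in control LT-HSC. Myc in mutant MPP turned to -0.03 with upper-quartile scaling and -0.04 with total counts, and ran from -0.00 (without MPP control 1) to 0.13 with 1 library left out. With the replicate block, 16 of the 40 were called in MPP and 26 between cell types, where same-numbered controls had r of -0.263 to 0.0683 and share only a number, as in MPP; the block changed no other call by over 1.5 times. With 3 libraries a group, small changes in the variable LT-HSC mutants may be missed.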
